A study of Mus musculus with 75 samples.

Results

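The complement and coagulation cascades were followed through 39 liver-made genes, listed by symbol, among the 55536 genes of a mouse liver RNA-seq count table. The list was drawn up by function, but with earlier results of these data known. Of the 39, 22 encode clotting factors, their inhibitors and the fibrinolysis proteins. Another 16 encode complement components and regulators, and Serping1 encodes the C1 inhibitor, which acts on both cascades. All 39 were found in the table and all 39 passed the filter on low counts in every comparison. The mice were C57Bl/6 and labelled male, and their mothers were given vehicle or the organotin tributyltin (TBT) in the drinking water until weaning, at a daily dose of 0.5 mg per kg (3.07 uM in the water). Exposure was therefore maternal and ended at weaning, so the livers of 5 and 10 months were taken long after it.

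The groups were vehicle and TBT liver at 3 weeks (8 libraries each), then liver of 5 months from vehicle mice (8) and from TBT mice called low risk (16) or high risk (10). At 10 months they were vehicle (6), low-risk TBT (5), uninvolved liver of high-risk TBT mice (6) and tumor (7), with 1 further vehicle library labelled as tumor that entered no comparison. How the 5-month mice were sorted into low and high risk is not in the labels, nor is how many animals each group came from, beyond the numbers in the sample titles, so p-values measure the spread between these samples. A pair of 3-week vehicle libraries of mouse 3 were summed to 1 sample, and so were the uninvolved livers 3 and 6, whose counts differed far less (chi-square per degree of freedom 3.21) than the next closest uninvolved pair (34.7), leaving 7 and 5 samples. Totals ran from 2.83 to 45.5 M counts per library. Of the 75 libraries, 6 stood apart by a low total, many detected genes or a high mitochondrial share: 2 high-risk and 1 low-risk of 5 months, vehicle 9 of 5 months, 1 vehicle of 3 weeks and the vehicle library labelled tumor. Vehicle 9 of 5 months had 2.83 M counts spread over 38206 genes, and its summed level of the 39 genes was 13940 counts per M counts (CPM, scaled by the trimmed mean of M-values) against a group median of 76330. TBT library 4 of 3 weeks had an Xist level of 348 CPM and a sum of 7.08 CPM over 4 Y-linked genes, whereas the other libraries had at most 84.6 CPM of Xist and at least 93.9 CPM over the Y-linked genes, which goes against its label as male. Hepatocyte markers (albumin, apolipoproteins and others, 10 genes) summed to 44070 to 233900 CPM, the lowest again in vehicle 9 of 5 months.

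Both cascades are chains of proteases that circulate as inactive precursors made mainly by hepatocytes. In coagulation, tissue factor with factor VII or the contact phase (factor XII, prekallikrein, kininogen, factor XI) leads to thrombin, which turns fibrinogen into fibrin; antithrombin, heparin cofactor II and protein C with protein S restrain it, and plasmin dissolves the clot. In complement, mannose-binding lectins with MASP proteases, or C1, cleave C4 and C2, C3 is opened, and C6, C8 and C9 join C5b and C7 in the membrane attack complex. Several of the genes are also induced by interleukin-6 in the acute-phase response, fibrinogen and C3 among them.

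Many of the genes are neighbours in the genome. Positions are those of GENCODE M21 on GRCm38. Fgg, Fga and Fgb, the 3 chains of fibrinogen, lie within 42.1 kb on chromosome 3 (83007724 to 83049863). C8b and C8a share 110.1 kb of chromosome 4 (104766317 to 104876398), while C8g, for the third chain of C8, is on chromosome 2. On chromosome 8, F7, F10 and Proz lie side by side (13026034 to 13076026), and F11 and Klkb1 span 53.7 kb (45241174 to 45294859). C4b, Cfb and C2 span 169.9 kb of chromosome 17, and Kng2 and Kng1 span 96.2 kb of chromosome 16. C4b has the near-identical copy C4a, Kng1 has Kng2, and C1ra has C1rb, so reads could be split between the copies and the levels of these genes are uncertain; Cfb and C2 are adjacent, and whether counting used strand is not given in the sources used here.

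Upstream sequences are shown for 2 of the fibrinogen genes and for the 3 genes of C8, because these genes had some of the largest differences between ages and risk groups. Each is the 250 bases before the RefSeq start (GRCm38.p6), 5' to 3' on the gene's strand, in lower case with matches to short motifs in capitals.
Fgb, chr3:83049864-83050113, minus strand: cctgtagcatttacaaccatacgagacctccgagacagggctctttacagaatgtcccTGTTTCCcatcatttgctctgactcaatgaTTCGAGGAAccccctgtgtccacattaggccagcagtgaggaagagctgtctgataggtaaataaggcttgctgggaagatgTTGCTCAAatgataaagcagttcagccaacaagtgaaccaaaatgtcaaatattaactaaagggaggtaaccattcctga
Fgg, chr3:83007474-83007723, plus strand: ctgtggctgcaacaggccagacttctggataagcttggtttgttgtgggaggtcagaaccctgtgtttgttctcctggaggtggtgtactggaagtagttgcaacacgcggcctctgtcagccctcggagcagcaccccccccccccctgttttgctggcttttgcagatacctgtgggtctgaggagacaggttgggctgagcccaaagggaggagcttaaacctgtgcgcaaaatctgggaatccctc
C8a, chr4:104876399-104876648, minus strand: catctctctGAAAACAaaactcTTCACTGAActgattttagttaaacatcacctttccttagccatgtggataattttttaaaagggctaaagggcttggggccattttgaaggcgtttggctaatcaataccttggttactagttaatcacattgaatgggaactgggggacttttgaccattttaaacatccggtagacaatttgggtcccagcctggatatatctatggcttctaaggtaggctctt
C8b, chr4:104766067-104766316, plus strand: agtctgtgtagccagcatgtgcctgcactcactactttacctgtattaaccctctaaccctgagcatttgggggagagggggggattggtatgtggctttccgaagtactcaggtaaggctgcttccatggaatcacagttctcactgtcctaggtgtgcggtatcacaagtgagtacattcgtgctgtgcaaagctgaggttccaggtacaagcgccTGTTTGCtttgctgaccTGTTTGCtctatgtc
C8g, chr2:25501720-25501969, minus strand: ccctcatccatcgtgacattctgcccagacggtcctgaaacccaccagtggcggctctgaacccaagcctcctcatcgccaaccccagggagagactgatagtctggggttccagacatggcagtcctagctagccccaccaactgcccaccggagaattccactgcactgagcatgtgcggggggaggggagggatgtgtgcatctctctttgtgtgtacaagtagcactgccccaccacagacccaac
The capitals mark C/EBP letters (TTGCNNAA) and STAT letters (TTCNNNGAA), searched on both strands, and FOXA letters (TGTTTNC), also on both strands. The Fgb window held 1 match of each of the 3. C8a held a STAT and a FOXA match, C8b held 2 FOXA matches, and the Fgg and C8g windows held none of these letters.

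RefSeq windows were matched for 30 of the 39 genes (31 windows, since C8g has 2). C/EBP letters were in 25.8% of these windows against 9.56% of all 32851 mouse windows of that length, STAT letters in 19.4% against 7.02%, and FOXA letters in 35.5% against 17.8%. HNF4 letters (CAAAGTCCA, both strands) were in none of the 31, against 0.384%. At so low a share over all windows, none was the likely count in 31 windows, so it does not show a lack of HNF4 sites. These are counts of letters, not of bound sites, and motifs may overlap.

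Levels per kb of exon ranked fibrinogen and C3 at the top. Lengths were those of all annotated exons of a gene merged, so a gene with long merged exons ranks lower than by CPM. In vehicle liver of 10 months, Fga stood at 2554 ± 281 CPM per kb (SD, n = 6), Fgg at 2449 ± 282, C3 at 1795 ± 394 and Fgb at 1714 ± 169. Kininogen (Kng1) followed at 815 ± 85.7 and plasminogen (Plg) at 579 ± 92.1. Fga and Fgg lay within their spread, as did C3 and Fgb, whereas the gaps between Fgb and Kng1, and between Kng1 and Plg, exceeded the SDs. The lowest per kb were C2, which gives the protease of the C3 convertase, at 12.6 ± 2.004, and Masp1, a lectin-pathway protease, at 17.6 ± 1.99. These ranks depend on the lengths. In the same livers Serpinc1 (8546 bases) and F2 (4594 bases) had means of 2636 and 2300 CPM, beside 2650 CPM for Kng1 (3250 bases). Masp1 (9833 bases) had 173.2 CPM, above F7 (1859 bases) at 92.2 CPM.

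At weaning the exposure itself left no call. In TBT against vehicle liver of 3 weeks, edgeR's quasi-likelihood test with Benjamini-Hochberg adjustment called 0 of the 39 genes and 0% of 14050 genes tested, with 1 of the 39 at an unadjusted p under 0.05 (Fgg, log2 fold change -0.22 ± 0.10 SE). Log2 fold changes of the 39 ran from -0.22 to 0.07. Low-risk TBT liver likewise gave 0 calls against vehicle at 5 months (0% of 14773 genes, 2 of the 39 at an unadjusted p under 0.05, range -0.47 to 0.33) and at 10 months (0% of 16338 genes, 2 of the 39, range -0.20 to 0.13). DESeq2 also called 0 of the 39 in each of the 3 comparisons. The estimates for low risk at 10 months were small but mostly of 1 sign, 35 negative and 4 positive (median -0.08, 0.005 over all genes). They were 23 and 16 for low risk at 5 months, and 25 and 14 at 3 weeks. The heat map of log2 fold changes shows these 3 comparisons as columns without a dot. Their colours are not all blank, with Fgb at -0.47 and Klkb1 at 0.33 in low-risk liver against vehicle at 5 months.

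**Figure D1:**
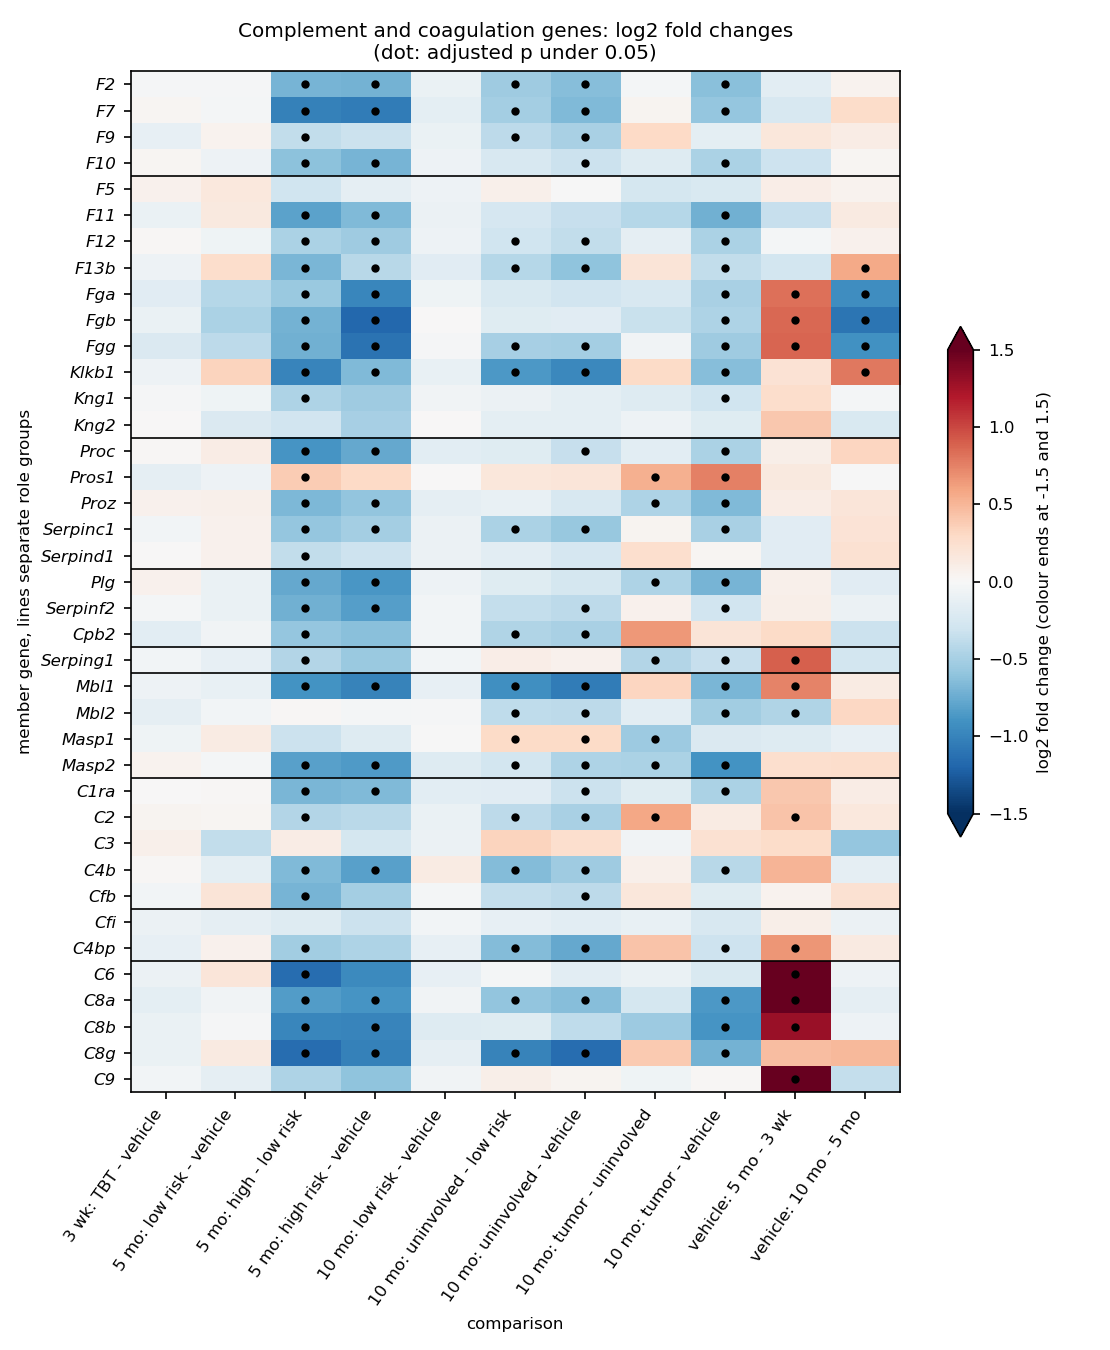
Log2 fold changes of the 39 genes (rows, grouped by role) in 11 comparisons (columns), with a dot where the adjusted p was under 0.05. The column of high against low risk at 5 months holds 31 lower and 1 higher call, and the columns of TBT against vehicle at 3 weeks and of low risk against vehicle hold none.

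High-risk liver at 5 months had lower levels of nearly the whole set. Against low-risk liver, 31 of the 39 genes fell and 1 rose, with a median log2 fold change of -0.66, where 18.5% of all 14773 genes tested fell, 20.3% rose and the median was -0.01. The 7 without a call were F5, Kng2, Mbl2, Masp1, C3, Cfi and C9. All 4 vitamin K dependent clotting factors fell (F2, F7, F9, F10), as did 8 of 10 cofactor, contact-phase and fibrin genes, 4 of 5 anticoagulant genes, 3 of 3 fibrinolysis genes, Serping1, 2 of 4 lectin-pathway genes, 4 of 5 genes of the classical and alternative pathways, 1 of 2 regulators (C4bp) and 4 of 5 terminal genes. Each value below is a TMM-scaled CPM, and each adjusted p is from the edgeR fit over all genes.

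F7, the protease that tissue factor activates, ran from 11.1 to 73.8 CPM in the 10 high-risk livers (median 41.3) and from 41.9 to 119.7 in the 16 low-risk livers (median 86.6). The groups overlapped, but the high-risk median lay below the lowest low-risk liver. Its log2 fold change was -1.02 ± 0.20 (SE, adjusted p = 1.12e-04). Klkb1, plasma prekallikrein, ran from 56.5 to 141.9 CPM (median 92.9) against 108.0 to 243.3 (median 201.5), a log2 fold change of -0.99 ± 0.14 (adjusted p = 7.74e-07). Most of the high-risk livers were under the lowest low-risk value for this gene. Thrombin's gene F2 changed by -0.70 ± 0.13 and its inhibitor antithrombin, Serpinc1, by -0.58 ± 0.11, so the transcripts of a clotting protease and of its inhibitor were both lower. Protein C (Proc) changed by -0.89 ± 0.14, while Pros1, the cofactor of activated protein C, was the 1 gene that rose.

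Pros1 ran from 88.6 to 153.4 CPM in high-risk liver (median 133.5) and from 68.3 to 169.6 in low-risk liver (median 91.5), a log2 fold change of 0.38 ± 0.14 (adjusted p = 0.029). The groups overlapped widely, and the call was lost with no filter on low counts (adjusted p = 0.095). Pros1 is also made by endothelial cells and others outside hepatocytes.

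In complement, the terminal genes had the lowest median of the role groups (-0.98). C8g, the gamma chain of C8, ran from 59.9 to 205.4 CPM in high-risk liver (median 127.7) against 129.6 to 539.6 (median 299.7), a log2 fold change of -1.14 ± 0.19 (adjusted p = 1.81e-05). C6 ran from 19.6 to 329.2 CPM (median 195.8) against 98.6 to 752.3 (median 457.3), a change of -1.14 ± 0.30 (adjusted p = 0.0029). The high-risk livers were spread widely for C6 and overlapped the low-risk ones. C8b, the beta chain, ran from 132.3 to 433.3 CPM (median 213.6) against 270.3 to 741.3 (median 473.5), a change of -0.98 ± 0.21 (adjusted p = 2.86e-04), and C8a, the alpha chain, changed by -0.83 ± 0.23. C9, which forms the pore, changed by -0.46 ± 0.29 without a call. Mbl1, mannose-binding lectin A, ran from 60.5 to 192.3 CPM (median 96.7) against 115.9 to 331.0 (median 198.1), a change of -0.90 ± 0.19 (adjusted p = 2.30e-04), whereas its relative Mbl2 was at 0.01 ± 0.13. Masp2, the protease that cleaves C4 and C2, changed by -0.81 ± 0.12. C3 itself was at 0.12 ± 0.18.

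**Figure D2:**
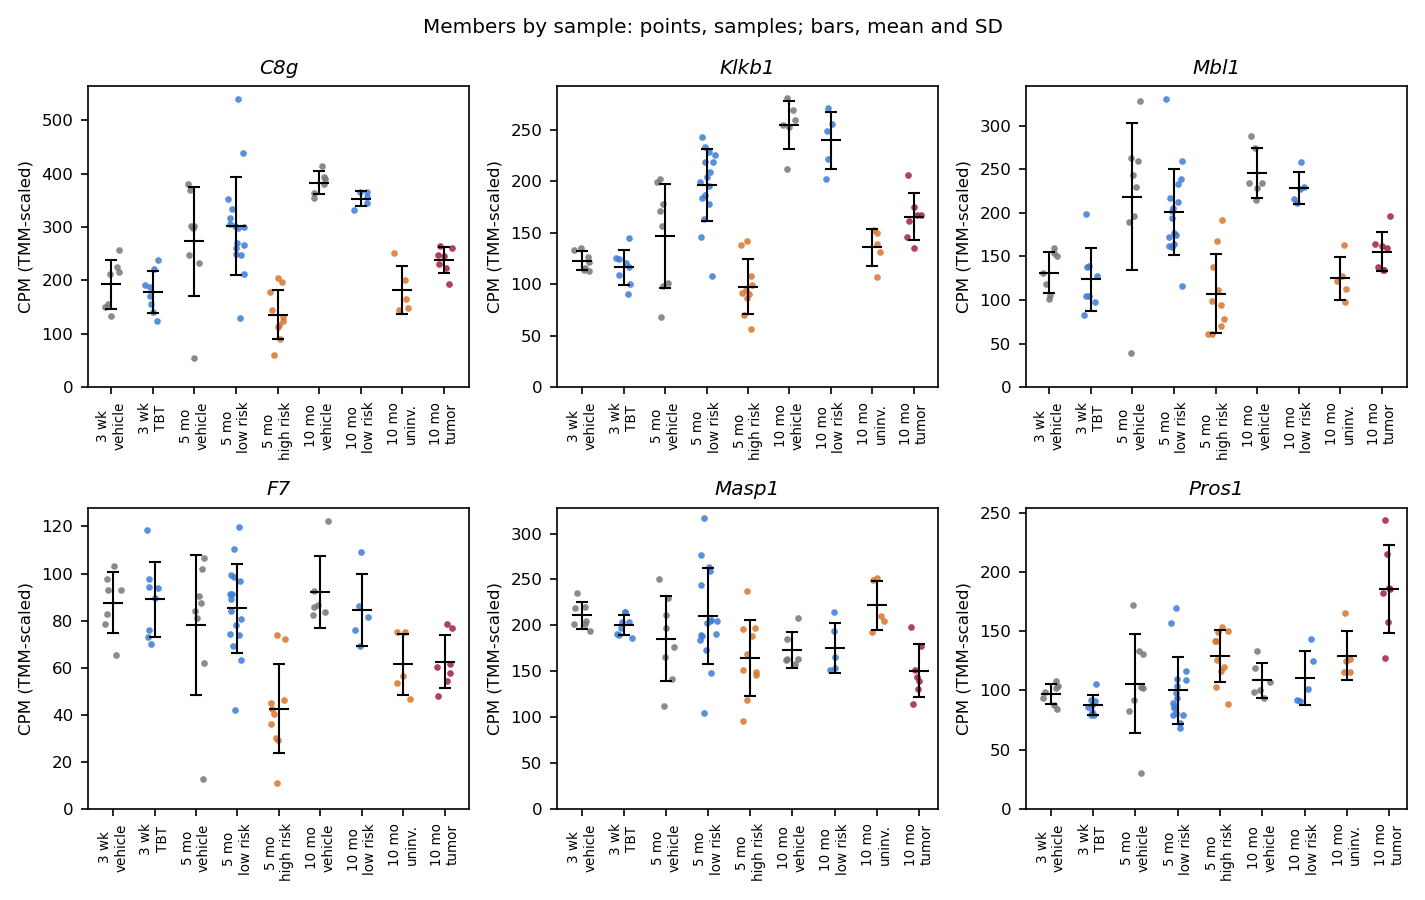
CPM (linear axis from 0) of 6 genes in every sample of 9 groups: points are samples, bars the mean and SD. For C8g the 5 uninvolved livers of 10 months (145.0 to 251.9) sit under all 5 low-risk livers (331.5 to 366.0), while at 5 months the groups overlap.

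Both sequencing batches held high- and low-risk livers, 3 and 6 in batch 1 and 7 and 10 in batch 2. Within batch 1 the median log2 fold change of the 39 genes was -0.57 with 2 genes called (F11 and Klkb1), and within batch 2 it was -0.61 with 29 called. The share of all genes called within each batch is not given here, so these counts are not a result about the 39 genes alone. Hepatocyte markers were 1 higher and 4 lower of 10 (median -0.23), and their summed level ran from 84700 to 197300 CPM in high-risk and from 97100 to 196000 in low-risk liver. Markers of bile duct (4 of 5 higher, summed level 32.8 to 342.4 against 25.8 to 220.5 CPM) and of stellate cells and fibroblasts (6 of 8 higher and 1 lower, 539.1 to 1371 against 305.6 to 651.0 CPM) moved with the groups. In bulk liver, fewer cells of a type and less RNA per cell cannot be told apart, and the part of these cell types in the result was not tested.

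Against vehicle of the same age, 22 of the 39 genes were lower in high-risk liver and 0 higher (median -0.63), where 7.38% of 14773 genes were lower and 8.47% higher. All 22 were among the 31 lower against low-risk liver, 71% of that list; the comparisons share the high-risk libraries. The fibrinogen genes Fgb and Fgg had the largest changes, at -1.18 ± 0.31 and -1.11 ± 0.28 (adjusted p = 0.0083 and 0.0068), followed by F7 at -1.05 ± 0.25 (adjusted p = 0.0046). The third fibrinogen gene, Fga, was at -0.98 ± 0.28 (adjusted p = 0.014). With only the 2 groups in the fit the count was 11, and the calls of Fgb and Fgg were lost (adjusted p = 0.097 and 0.077). Of the vehicles, 7 were in batch 1 and 1 in batch 2, against 3 and 7 high-risk livers. Batch was a covariate in the fit, but with 1 vehicle in batch 2 it can be told apart from the groups only in part. The same holds for low risk against vehicle at 5 months. Batch 1 alone, with 3 high-risk livers, gave 0 calls at a median of -0.64.

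Fibrinogen and acute-phase genes were both uneven among these vehicles. Fgb was 13270, 11970, 20220, 12260, 18380, 20090, 7208 and 1590 CPM in vehicles 1, 2, 3, 4, 5, 6, 8 and 9 of 5 months, and the summed level of 21 acute-phase genes (serum amyloid A, haptoglobin, orosomucoid and others) was 23610, 18700, 85180, 42470, 27120, 73510, 15280 and 3212 CPM. Vehicles 3 and 6 were high in both and vehicle 9 was lowest in both. In high-risk liver the acute-phase sum ran from 8729 to 32630 CPM and Fgb from 3398 to 10230. In low-risk liver the sum ran from 10170 to 65420 CPM and Fgb from 5280 to 15080. Of the 21 acute-phase genes, 4 were lower and 0 higher in high- against low-risk liver (median -0.54), where 18.5% of all genes tested were lower and 20.3% higher. The part of the acute-phase level in the fibrinogen differences from vehicle and from low-risk liver was not tested.

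**Figure D3:**
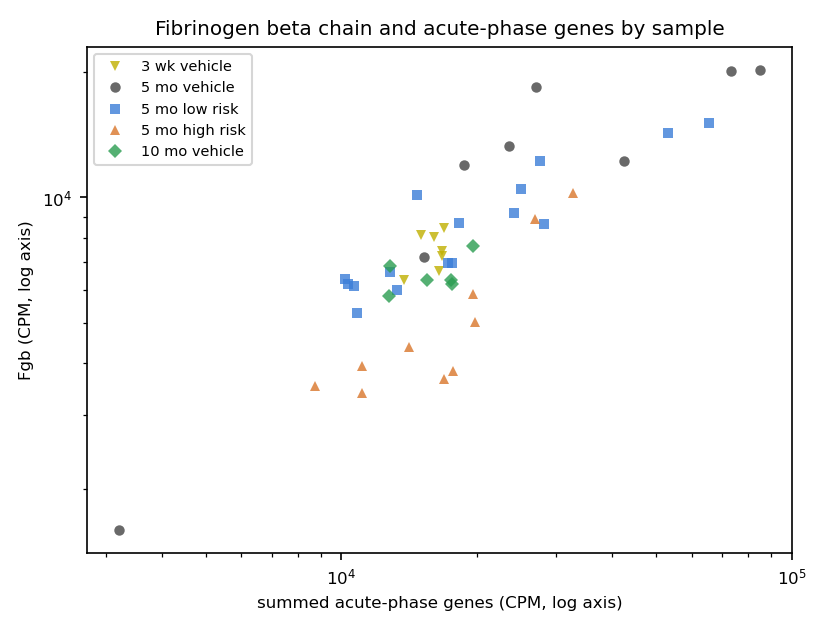
Fgb (CPM, log axis) against the summed level of 21 acute-phase genes (CPM, log axis), 1 point per sample, for vehicles of 3 ages and for low- and high-risk liver of 5 months. Vehicles of 5 months spread from 1590 to 20220 CPM of Fgb, and vehicles of 10 months lie between 5804 and 7654.

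At 10 months, uninvolved high-risk liver showed a narrower set. Against low-risk liver 17 of the 39 genes were lower and 1 higher (median -0.25), where 24.7% of 16338 genes were lower and 27.7% higher and the median of all genes was 0.05. Of the 17, 16 were also lower at 5 months, 94.1% of the 17 and 51.6% of the 31; the other was Mbl2. The calls were F2, F7, F9, F12, F13b, Fgg, Klkb1, Serpinc1, Cpb2, Mbl1, Mbl2, Masp2, C2, C4b, C4bp, C8a and C8g. For 7 of the 39 genes (F2, F13b, Klkb1, Serpinc1, Mbl1, C4bp and C8g) every uninvolved liver lay below every low-risk liver. This was so for 12.9% of all 16338 genes tested, a share not far from that of the 39.

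C8g was 145.0, 251.9, 201.1, 165.7 and 148.8 CPM in the uninvolved livers (mouse 1, mouse 12, the summed pair, mouse 5 and mouse 7) and 331.5, 345.3, 366.0, 356.8 and 365.9 in the low-risk livers (mice 10, 2, 4, 8 and 9), an order kept below. The low-risk values lay within a narrow band and no uninvolved liver reached it. Its log2 fold change was -1.003 ± 0.12 (adjusted p = 5.86e-06). Mbl1 was 113.0, 163.7, 127.4, 122.2 and 97.7 CPM against 215.4, 226.9, 211.1, 229.6 and 258.6, a change of -0.92 ± 0.12 (adjusted p = 1.07e-05). Klkb1 was 131.5, 139.3, 107.3, 149.4 and 152.8 CPM against 202.5, 249.3, 221.4, 271.1 and 256.1, a change of -0.86 ± 0.11 (adjusted p = 1.38e-05). These 3 genes, a C8 chain, a lectin and prekallikrein, were among the 7 without overlap between the groups.

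C4bp, which inhibits the C4-based convertase, was 456.5, 575.9, 703.0, 487.7 and 453.2 CPM in uninvolved liver against 717.2, 854.2, 729.4, 986.3 and 775.7, a log2 fold change of -0.65 ± 0.12 (adjusted p = 2.29e-04). C4b, its target, was 1119, 1494, 1916, 1140 and 1097 CPM against 1904, 2488, 1828, 2333 and 1703, a change of -0.65 ± 0.15 (adjusted p = 0.0020). The summed pair of uninvolved livers was the highest of its group for both genes and, for C4b, lay among the low-risk livers. C8a was 776.1, 862.7, 678.3, 1035 and 700.7 CPM against 870.7, 1486, 958.7, 1446 and 1172, a change of -0.60 ± 0.17 (adjusted p = 0.0077), with overlap.

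Masp1, for a lectin-pathway protease, was the gene that rose. It was 192.7, 210.2, 249.0, 204.9 and 251.4 CPM in uninvolved liver and 150.9, 214.0, 165.0, 194.1 and 153.5 in low-risk liver, a log2 fold change of 0.29 ± 0.11 (adjusted p = 0.043). The groups overlapped. The call ended in 8 of the alternatives, among them without a low-count filter (adjusted p = 0.10), with the 2 groups alone (0.085) and without uninvolved liver 7 (0.093).

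Of the genes that were lower at 5 months, C6 (-0.04 ± 0.17), C8b (-0.19 ± 0.19), Proc (-0.18 ± 0.12) and Plg (-0.19 ± 0.15) gave no call at 10 months. An interaction term for risk by age called 0 of the 39 genes; 0.353% of 17572 genes were called, and 9 of the 39 had an unadjusted p under 0.05. The interaction estimates were positive for 34 of the 39 (median 0.27, 0.06 over all genes), so the 10-month differences were mostly the smaller ones, with the largest for C6 at 1.10 ± 0.48 (adjusted p = 0.36). Proc was at 0.71 ± 0.25 (adjusted p = 0.22), and DESeq2 called it alone (adjusted p = 0.031). The 2 ages also differ in tissue label, since the 10-month samples are uninvolved liver from mice with tumors.

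Against vehicle of 10 months, 22 genes were lower in uninvolved liver and 1 higher (median -0.38), where 26.5% of 16338 genes were lower and 31.2% higher. The 22 held all 17 found against low-risk liver; the uninvolved libraries are shared. C8g (-1.14 ± 0.12), Mbl1 (-1.05 ± 0.11) and Klkb1 (-0.97 ± 0.11) again had the largest changes. For 10 of the 39 genes every uninvolved liver lay below every vehicle, a larger share than the 12.4% of all genes tested. Masp1 was the higher one at 0.29 ± 0.11. Counting the vehicle library labelled tumor as a vehicle reduced the 23 calls to 9, and Masp1 lost its call (adjusted p = 0.29).

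In these comparisons hepatocyte markers were 6 lower and 1 higher of 10 against low-risk liver (median -0.38) and 7 lower and 0 higher against vehicle (median -0.51). Their summed level ran from 89170 to 131200 CPM in uninvolved liver and from 138000 to 147100 in low-risk liver, with no overlap. All 5 bile duct markers were higher against low-risk liver (summed level 106.6 to 217.1 against 38.5 to 59.7 CPM). Of 8 stellate cell and fibroblast markers, 5 were higher and 1 lower (median 0.97), and their summed level ran from 603.3 to 826.3 CPM in uninvolved and from 377.0 to 551.7 in low-risk liver, with no overlap. The part of these shifts in the complement and coagulation genes was not tested.

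Few of the genes differed between tumors and uninvolved liver, 6 pairs of which share a mouse number. Of the 39 genes, 2 rose and 5 fell (median -0.08), where 7.55% of 16362 genes rose and 10.5% fell, so the shares called were near those over all genes. C2 ran from 43.4 to 64.4 CPM in the 7 tumors (median 49.97) and was 30.8, 40.8, 52.8, 30.3 and 28.6 in the uninvolved livers, a log2 fold change of 0.58 ± 0.15 (adjusted p = 0.020). Pros1 ran from 127.8 to 244.0 CPM (median 185.7) against 115.3, 124.5, 165.4, 126.4 and 115.8, a change of 0.53 ± 0.14 (adjusted p = 0.020). Tumors were the higher group for both genes, with overlap.

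The genes that fell in tumors were Masp1 (-0.55 ± 0.14, adjusted p = 0.020), Masp2 (-0.47 ± 0.14, adjusted p = 0.032), Plg (-0.47 ± 0.15, adjusted p = 0.048), Proz (-0.46 ± 0.14, adjusted p = 0.041) and Serping1 (-0.44 ± 0.14, adjusted p = 0.039). Masp1 ran from 113.8 to 198.6 CPM in tumors (median 143.4) against 192.7 to 251.4 in uninvolved liver. Plg, the plasmin precursor, ran from 1083 to 1730 CPM (median 1250) against 1493 to 2457, and Proz, protein Z, from 236.3 to 410.6 (median 286.2) against 355.9 to 498.2. Masp2 ran from 94.4 to 159.3 CPM (median 112.6) against 147.7 to 194.7, and Serping1, whose product inhibits the MASP proteases, from 513.8 to 823.9 (median 655.3) against 745.7 to 1148. With the mouse as a block the 7 calls became 3 (6 pairs) or 5 (4 pairs without the summed livers), and without uninvolved liver 1, 5 or 7 they became 2, 2 and 0. DESeq2 gave 11 and a fit with all 10-month groups 15.

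Against vehicle liver, tumors had 26 genes lower and 1 higher (median -0.47), where 21% of 15293 genes were lower and 24.8% higher. For 18 of the 39 genes every tumor lay below every vehicle, a larger share than the 8.16% of all genes tested. Masp2 (-0.89 ± 0.12), C8b (-0.89 ± 0.15) and C8a (-0.86 ± 0.14) fell the most. C8g fell by 0.70 on the log2 scale (SE 0.08, adjusted p = 1.37e-05), from a vehicle range of 355.0 to 413.7 CPM to 193.2 to 265.2. Pros1 rose by 0.75 ± 0.13 (adjusted p = 2.91e-04), from 93.4 to 133.4 CPM (median 103.8) to 127.8 to 244.0, with overlap. Terminal genes C6 (-0.22 ± 0.11) and C9 (0.01 ± 0.10) gave no call. With the vehicle library labelled tumor counted as vehicle, 16 calls were made. Hepatocyte markers were 6 lower and 0 higher of 10 (median -0.41), bile duct markers 5 higher of 5 (median 2.02), stellate cell and fibroblast markers 4 higher and 1 lower of 8, sinusoidal endothelium markers 2 higher and 5 lower of 7, and erythrocyte markers 4 lower of 5. Their part in the tumor values was not tested.

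In vehicle liver, 4 of the 5 terminal complement genes rose between 3 weeks and 5 months. In that comparison (batch 1 only, 7 samples of each age) 11 of the 39 genes rose and 1 fell (median 0.22), where 11.9% of 14962 genes rose and 12.3% fell. C6 ran from 46.4 to 74.6 CPM at 3 weeks (median 56.8) and from 132.6 to 573.1 over all 8 vehicles of 5 months (median 415.8), a log2 fold change of 2.76 ± 0.16 (adjusted p = 7.25e-11). C9 ran from 147.4 to 210.4 CPM (median 186.8) and then from 250.1 to 1165 (median 835.5), a change of 2.20 ± 0.16 (adjusted p = 1.56e-09). For these 2 of the 39 genes every 3-week vehicle lay below every 5-month vehicle, vehicle 9 included. Over all genes tested the share was 0.969%, a smaller one, but the comparison rests on these 2 genes.

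C8a ran from 334.7 to 555.1 CPM at 3 weeks (median 415.3) and from 239.5 to 2017 at 5 months (median 1344), a change of 1.57 ± 0.21 (adjusted p = 9.87e-06). C8b ran from 158.4 to 327.4 CPM (median 223.2) and then from 115.1 to 778.4 (median 581.6), a change of 1.30 ± 0.21 (adjusted p = 7.62e-05). The overlap in both came from vehicle 9, which held the lowest value. C8g, unlinked to the other 2 chains, was at 0.46 ± 0.20 without a call (adjusted p = 0.091). Serping1 ran from 407.9 to 620.1 CPM (median 527.0) and then from 303.0 to 1383 (median 1032), a change of 0.89 ± 0.14 (adjusted p = 6.52e-05).

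None of the 4 vitamin K dependent factors, 5 anticoagulant genes and 3 fibrinolysis genes was called between 3 weeks and 5 months. The fibrinogen genes rose, Fga by 0.83 ± 0.23, Fgb by 0.86 ± 0.25 and Fgg by 0.87 ± 0.24, beside a rise of 14 of 21 acute-phase genes (median 1.45). Fgg ran from 4554 to 5803 CPM at 3 weeks (median 5221) and from 1261 to 13460 at 5 months (median 8979). Mbl1 (0.74 ± 0.20), C4bp (0.66 ± 0.17) and C2 (0.43 ± 0.14) also rose, and Mbl2 fell by 0.45 on the log2 scale (SE 0.14, adjusted p = 0.027). Mbl2 ran from 273.0 to 516.2 CPM and then from 99.9 to 355.1, and its call was lost without a low-count filter (adjusted p = 0.14). Without vehicle 9 the comparison gave 20 calls in place of 12, and without all libraries that stood apart 21. Markers of other cells moved with age too: sinusoidal endothelium markers were lower in 7 of 7 (summed level 525.4 to 588.0 CPM at 3 weeks and 138.8 to 498.3 at 5 months), stellate cell and fibroblast markers in 5 of 8 (908.0 to 1414 and 83.9 to 703.4 CPM), erythrocyte markers in 4 of 5 with 1 higher, and hepatocyte markers in 2 of 10. Their part in the age difference was not tested. Age and any difference in handling between the ages cannot be told apart.

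From 5 to 10 months 2 of the 39 genes rose and 3 fell in vehicle liver (median 0.05). Of 14962 genes 6.68% rose and 7.41% fell, so the shares called were near those over all genes. Klkb1 rose by 0.80 ± 0.14 (adjusted p = 0.0010), from 68.4 to 202.0 CPM (median 163.9) to 212.2 to 281.4 (median 257.0). F13b, the carrier subunit of factor XIII, rose by 0.57 ± 0.13 (adjusted p = 0.0072). The fibrinogen genes fell, Fgb by 1.09 ± 0.27 (adjusted p = 0.010), Fga by 0.93 ± 0.24 and Fgg by 0.91 ± 0.25 on the log2 scale, beside a fall of 11 of 21 acute-phase genes (median -1.23). With the 2 groups alone 3 genes were called, and Fga and Fgg lost their calls (adjusted p = 0.055 and 0.062). Without vehicle 9 there were 9 calls. The terminal genes showed no call between these ages (-0.35 to 0.49).

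Other genes of the cascades, those outside the list of 39, moved in both directions. In high- against low-risk liver at 5 months, 7 of 25 other coagulation and fibrinolysis genes tested rose and 9 fell, and 12 of 34 other complement genes rose and 13 fell. Plat, tissue plasminogen activator, rose by 3.49 ± 0.43 on the log2 scale (adjusted p = 2.21e-07), Itgax, a chain of complement receptor 4, by 2.84 ± 0.37, F2rl1, a protease-activated receptor, by 2.08 ± 0.63, Cfd, factor D, by 2.07 ± 0.82, and C7 by 1.93 ± 0.30. Colec10, a collectin of the lectin pathway, was at -2.08 ± 0.27, Fcna, a ficolin, at -1.30 ± 0.20, Serpine2, a thrombin inhibitor, at -1.27 ± 0.26, Cd59b, a blocker of the membrane attack complex, at -1.26 ± 0.27, and Hgfac at -1.22 ± 0.20.

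At 10 months, uninvolved against low-risk liver, 7 of 25 other coagulation genes rose and 8 fell, and 7 of 35 other complement genes rose and 15 fell. F2rl1 rose by 3.29 ± 0.58, Itgax by 2.99 ± 0.22, Plat by 2.80 ± 0.36, Plaur, the urokinase receptor, by 2.21 ± 0.41 and F2rl2 by 1.76 ± 0.45. Colec10 was at -2.36 ± 0.19, C1s2 at -2.35 ± 0.94, Fcna at -1.68 ± 0.13, Serpine2 at -1.21 ± 0.19 and Cfhr2 at -0.96 ± 0.13. Ggcx and Vkorc1 encode the carboxylase and the reductase of the vitamin K cycle, which clotting factors II, VII, IX and X need, among other proteins. Both genes were chosen after their values were seen. Ggcx and Vkorc1 changed by -0.58 ± 0.11 and -0.73 ± 0.14 at 5 months and by -0.66 ± 0.12 and -0.83 ± 0.12 at 10 months. C7, which joins the same complex as C6 and C8, was higher at both ages (1.26 ± 0.20 at 10 months) while C8g was lower.

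**Figure D4:**
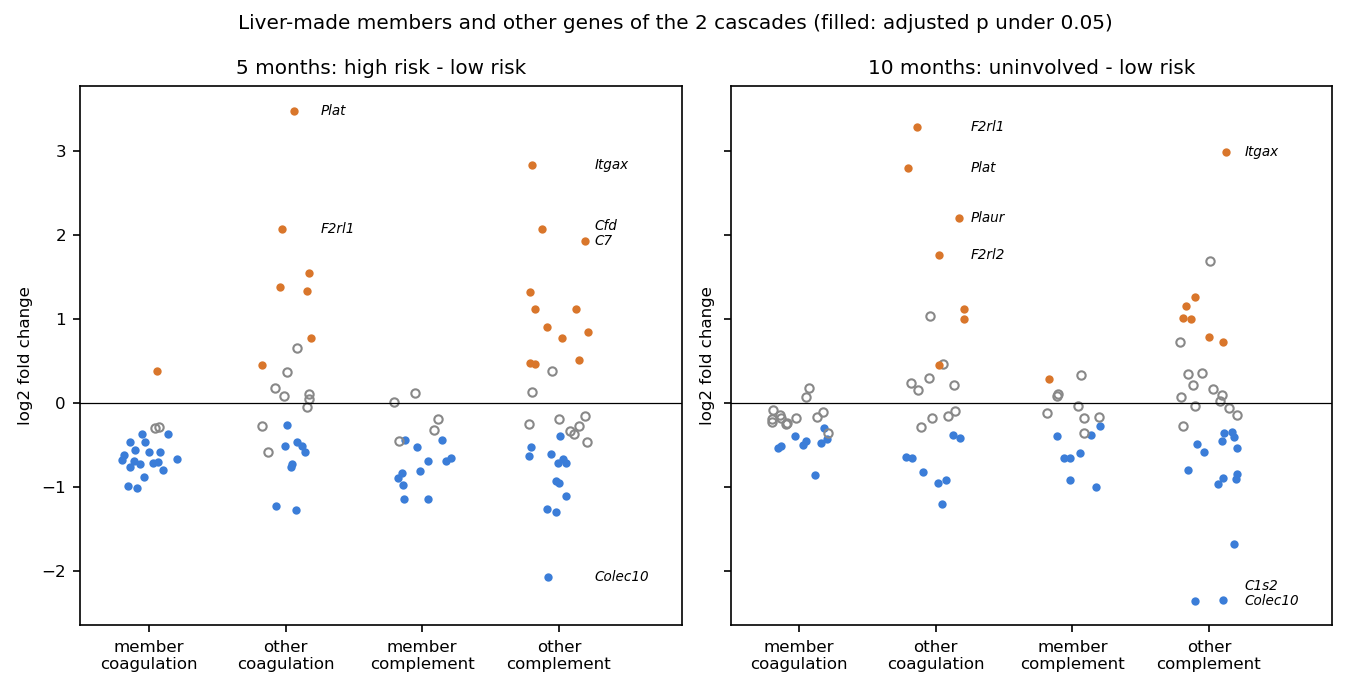
Log2 fold changes of the 39 genes and of other genes of the cascades at 5 months (left) and 10 months (right); filled points passed the test. The 39 genes lie mostly below 0, and the other genes spread to both sides, from Plat at 3.49 to Colec10 at -2.08 at 5 months.

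Between tumor and uninvolved liver, 4 of 25 other coagulation genes rose and 3 fell and 1 of 34 other complement genes rose and 1 fell. F13a1, the catalytic subunit of factor XIII, rose by 1.13 ± 0.31, Tfpi2 by 0.63 ± 0.13, Cfhr2 by 0.53 ± 0.16, Vkorc1 by 0.48 ± 0.14 and Mcfd2 by 0.41 ± 0.13; F2rl2 was at -1.93 ± 0.52, C4a at -0.84 ± 0.20, Hrg at -0.74 ± 0.17 and Habp2 at -0.42 ± 0.12. In vehicle liver from 3 weeks to 5 months, 4 of 24 other coagulation genes rose and 6 fell, and 12 of 35 other complement genes rose and 5 fell. Cfd (2.64 ± 0.92), Serpine2 (2.23 ± 0.21), C4a (2.13 ± 0.23), C7 (2.05 ± 0.43) and Serpina10, the protein Z dependent inhibitor (1.45 ± 0.27), rose the most, and among those that fell were A2m (-2.88 ± 0.67), Colec10 (-1.19 ± 0.26), Tfpi (-1.09 ± 0.14) and Cfp, properdin (-1.01 ± 0.18).

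Transcription factors of hepatocytes, 20 genes, were listed beside the members. Those named here are a part of the 20, picked from families whose motifs were searched above. Other listed genes of the C/EBP and STAT families, and the genes that rose, are not named. The named values therefore do not stand for the 20 as a set or for these families. Log2 fold changes of the 20 ran from -2.19 to 1.09 at 5 months (median -0.57) and from -1.44 to 1.31 at 10 months (median -0.12). At 5 months, high against low risk, 9 fell and 1 rose, and Cebpa, whose product binds C/EBP sites, was at -0.95 ± 0.19, Foxa1 at -0.83 ± 0.28, Foxa2 at -0.71 ± 0.17 and Foxa3 at -0.59 ± 0.22. Hnf4a was at -0.25 ± 0.14 without a call. At 10 months, uninvolved against low risk, 6 fell and 5 rose: Cebpa was at -0.98 ± 0.11, and the 3 Foxa genes gave no call (-0.32 to 0.07). Whether these factors bear on the complement and coagulation genes was not tested.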

How the data were processed

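Per the labels' protocols, RNeasy RNA, after DNase, went into TruSeq stranded total RNA libraries. The authors deposited counts, whole numbers per gene, for 75 libraries. Trim Galore, HISAT2, featureCounts and mm10 are named in the submitters' processing notes, and ComBat-seq adjustment between batches in the file name; the adjustment's settings and the strand setting of counting are not given in the sources used here. Adjusted counts can hide or keep part of a batch difference, so batches were also tested alone.

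The members and gene lists were chosen with earlier results of these data known, and the alternative without vehicle 9 of 5 months after the data were seen. The rule named up to 6 genes higher and 6 lower per main comparison, with adjusted p under 0.05 and the largest change, and up to 3 each way in the others; of the other genes of the cascades, up to 5 each way. Counts were tested over all genes with edgeR 4.0.16 in R 4.3.3 (TMM, filterByExpr, robust quasi-likelihood, Benjamini-Hochberg, threshold 0.05), with batch as a covariate at 5 months. Ages used vehicles of batch 1. DESeq2 1.42.0, RLE scaling, no filter, batches alone, left-out libraries and replicate blocks were alternatives. Tumor and uninvolved samples share mouse numbers in their titles, and deviations of same-numbered samples correlated from -0.19 to 0.62. The procedure was tested on simulated data for the main comparisons, with 200 genes changed 2-fold and no batch effect. It recovered 124 to 144 of the 200, and 2.21% to 3.88% of the calls were false. Smaller changes were not simulated, so a missing call does not exclude a difference. Levels are CPM scaled by TMM over all samples; figures were drawn with matplotlib. Markers of neutrophils, erythrocytes, platelets, sinusoidal endothelium, macrophages, lymphocytes and pancreas were listed too and are counted in the closing section. Some results on other genes are not reported here.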

Additional observations from a re-analysis of the deposited data

Results flagged for a closer look

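Among 69 pairs of a named gene and a group of 4 to 10 samples, 4 held a sample far from the others by Dixon's test, which chance alone does in about 1 of 20 groups. Masp2 was 194.7 CPM in uninvolved liver 12 against 160.2 in the next. Pros1 was 165.4 CPM in the summed uninvolved livers 3 and 6 against 126.4 in the next. Vehicle 9 of 5 months held 99.9 CPM of Mbl2 against 252.9 in the next lowest, and 303.0 CPM of Serping1 against 904.8; this is the library with 2.83 M counts.

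The vehicle library labelled tumor entered no comparison. It lay above all 6 vehicles of 10 months for 2 of the 39 genes (F5, 1345 CPM against at most 1114, and Masp1, 246.4 against at most 208.2) and below all 6 for 33. It is a single library of 11.5 M counts with a mitochondrial share of 14.1%.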

How the results depend on the processing

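The 44 named results gave 529 values under the alternatives; 463 kept direction and side of the threshold, 66 kept direction but lost the call and 0 reversed. The share of all genes called under each alternative is not given here, so a changed count need not be particular to the 39 genes. Counts of the 39 genes called stayed within 1.5 times in the other settings, except as follows. High against low risk at 5 months gave 2 in batch 1, and high risk against vehicle gave 0 in batch 1 and 11 with the 2 groups alone; batch 1 held 3 high-risk livers, and beyond the fewer samples the cause was not tested. Uninvolved liver and tumor against vehicle gave 9 and 16 with the vehicle library labelled tumor as a vehicle. Tumor against uninvolved liver gave 11 by DESeq2, 15 with all 10-month groups, 3 with the mouse as a replicate block (6 pairs; 5 with 4 pairs), and 0 to 8 with 1 sample left out. Vehicle of 5 months against 3 weeks gave 21 without the libraries that stood apart, 20 without vehicle 9 and 20 with title numbers as a replicate block; 10 against 5 months gave 9, 9 and 8, and 3 with the 2 groups alone. Numbers of vehicles of different ages are not stated to pair animals. The interaction gave 1 by DESeq2. Vehicle 9 of 5 months had the fewest counts (2.83 M), spread over 38206 genes, and why its levels of the 39 genes were low was not tested.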

Other observations

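Other cell type markers moved with the risk groups. In high- against low-risk liver at 5 months, sinusoidal endothelium markers were 5 lower and 1 higher of 7, macrophage markers 4 higher and 3 lower of 10, lymphocyte markers 4 higher and 0 lower of 6, erythrocyte markers 1 lower of 5, and platelet markers 1 higher of 4; neither neutrophil marker tested was called. No pancreatic acinar marker passed the filter on low counts there. In uninvolved against low-risk liver at 10 months, endothelial markers were 1 higher and 2 lower of 7, macrophage markers 3 higher and 6 lower of 10, lymphocyte markers 3 higher and 0 lower of 6, erythrocyte markers 1 lower of 5, platelet markers 1 higher of 4, neutrophil markers 1 lower of 2, and the 1 pancreatic acinar marker tested was lower.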
